A study of Mus musculus with 6 samples.

Results

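The transcripts described here encode the antigen-presenting molecules of major histocompatibility complex (MHC) class I and the factor that switches them on. They are the heavy chains H2-K1, H2-D1, H2-Q4, H2-T22, H2-T23 and H2-M3, the light chain B2m and the transactivator Nlrc5. The 8 genes were chosen by symbol, and all 8 were present among the 24015 symbols of the count table. They were chosen with an earlier result of the same comparison in view, in which interferon-stimulated and antigen-presentation genes were higher after anti-Stat3 siRNA, so their changes are given below as a description and not as a test. The RNA came from primary CAFs (fibroblasts associated with cancer) out of mammary tumours of NeuT mice, BalbC in background, whose transgene is an activated form of rat Her2/neu that causes mammary carcinoma. Nanoparticles with anti-Stat3 siRNA were given to 3 samples and nanoparticles with control siRNA to the other 3, at 1 ug/mL for 72 hours, and all 6 grew in medium with serum. The aim stated for the series was to find genes that depend on the transcription factor STAT3 in CAFs. The labels do not say how many animals or cultures the cells came from.

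A class I molecule is a heavy chain bound to the light chain beta-2 microglobulin and to a short peptide made by the proteasome and pumped into the endoplasmic reticulum by the TAP transporter. It shows that peptide to CD8 T cells, and its absence or presence is also read by natural killer cells. H2-K and H2-D are the classical, highly polymorphic chains, and the Q, T and M genes encode non-classical chains with lower polymorphism. Class I genes are induced by interferons, which act in part through interferon regulatory factors (IRFs), and by NLRC5, which is itself an interferon-induced gene and acts on a set of promoter boxes shared by the class I genes. BalbC mice carry the H2d haplotype, while the mouse reference genome has H2b, so reads of heavy chains were set against alleles of another strain. The effect of this on each chain's level was not tested.

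Total counts ranged from 12998168 to 16043022 in the anti-Stat3 samples and from 14676958 to 18683852 in the control samples. Stat3, the target of the siRNA, had 34.7, 81.9 and 78.9 CPM (counts relative to the size of each library) in anti-Stat3 samples 1 to 3, against 220.4, 359 and 405 CPM in control samples 1 to 3, so the labels held. Each replicate number is called a pair below, since samples that share it departed from their groups in the same way. All 10 fibroblast markers examined were detected. Their sum was 25456, 42100 and 52669 CPM in anti-Stat3 samples 1 to 3. In control samples 1 to 3 it was 21682, 64737 and 68798 CPM, so pair 1 was lowest in both groups. Macrophage markers differed by pair: 17 of the 18 listed were in the table and none was at 0 in all samples, and their sum was 43.8, 1732 and 2863 CPM in anti-Stat3 samples 1 to 3 and 48.3, 1801 and 2483 CPM in control samples 1 to 3. Epithelial markers, 15 of 15 in the table, summed to 198.8, 530.5 and 57.8 CPM in the anti-Stat3 and 203.2, 541 and 61.1 CPM in the control samples. Endothelial markers summed to 164.9 to 257 CPM in the anti-Stat3 and 135.8 to 203.2 CPM in the control samples, most of it from Eng, which fibroblasts also express. Kdr, the next highest of that list, had 2.44, 30.3 and 11.2 CPM in anti-Stat3 samples 1 to 3 and 1.56, 21.4 and 10.4 CPM in control samples 1 to 3, and Pecam1 was at most 0.376 CPM in the anti-Stat3 and 0.609 CPM in the control samples. T and natural killer cell markers summed to at most 0.614 CPM in the anti-Stat3 and 0.480 CPM in the control samples, and Cd3d, Cd3g, Cd8a, Ncr1 and Gzma were at 0 in every sample. Dendritic and B cell markers summed to at most 11.7 CPM in the anti-Stat3 and 11.6 CPM in the control samples. In bulk RNA, fewer cells of a type and less RNA per cell cannot be told apart.

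All 8 class I transcripts were higher with anti-Stat3 siRNA than with control siRNA in each of the 3 pairs, and for 6 of them the lowest anti-Stat3 sample lay above the highest control sample. The differences were small in pair 1 and large in pairs 2 and 3. The median of the 8 log2 changes, anti-Stat3 over control, was 0.31 in pair 1, 1.66 in pair 2 and 1.91 in pair 3, where the medians over all 13284 genes tested were 0.0011, -7.9e-06 and 0.012. Among all genes tested, 17.3% were higher and 16.4% lower in all 3 pairs, and in 2.45% the groups did not overlap with the anti-Stat3 samples higher. Since the choice of genes followed from this comparison, nothing is read from these shares.

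**Figure D1:**
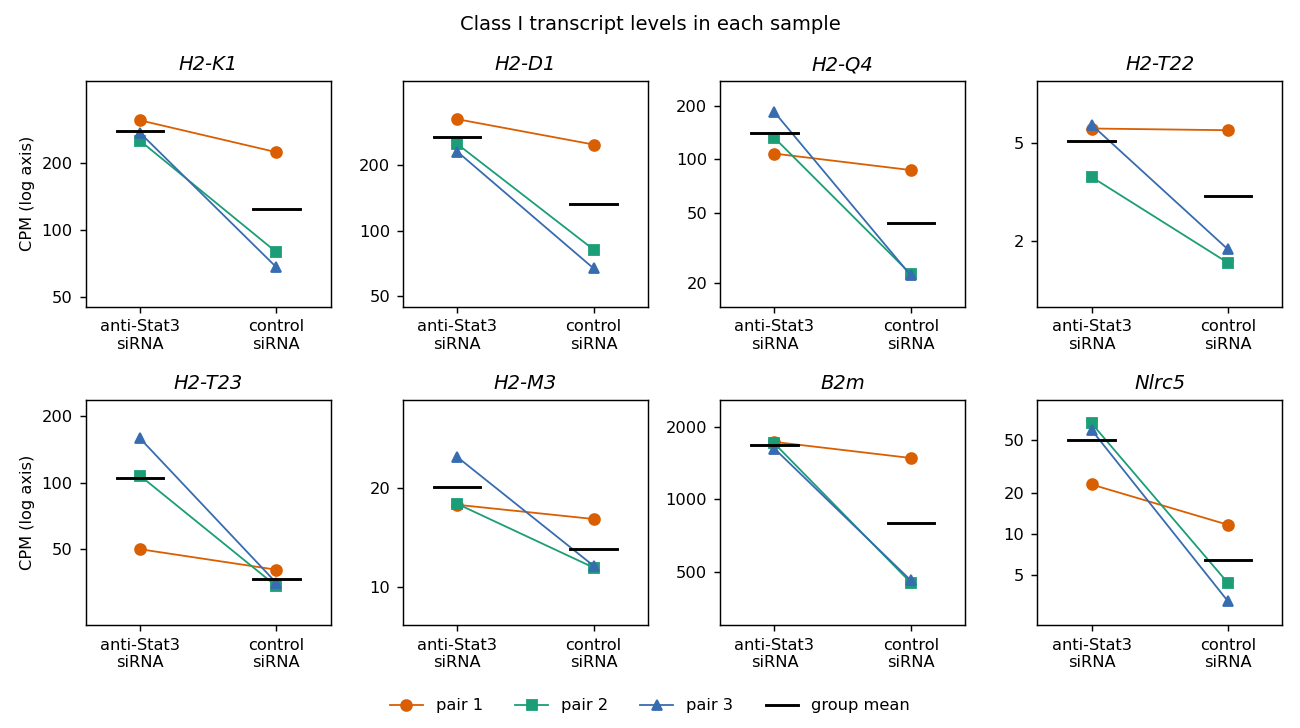
Level of each of the 8 class I transcripts in CPM on a log axis, anti-Stat3 siRNA on the left and control siRNA on the right of each panel, with a line joining samples of the same number and a black bar at each group mean (n = 3). For H2-K1, H2-D1 and B2m the 3 anti-Stat3 samples lie close together and control samples 2 and 3 are far lower, while control sample 1 lies just under the anti-Stat3 samples for H2-K1 and B2m and among them for H2-D1.

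The classical heavy chains H2-K1 and H2-D1 present peptides of the cell's own proteins to CD8 T cells. H2-K1 had 310.2, 251 and 272 CPM in anti-Stat3 samples 1 to 3, against 223, 79.5 and 68.1 CPM in control samples 1 to 3. Every anti-Stat3 sample was above every control sample, and control sample 1 lay far nearer to the anti-Stat3 samples than to the other controls. H2-D1 had 327, 251 and 231 CPM in the anti-Stat3 samples, against 249, 81.7 and 66.9 CPM in the control samples. For this gene the groups overlapped, because control sample 1 lay above anti-Stat3 sample 3. The log2 change in edgeR with the group as the only term was 1.17 ± 0.47 for H2-K1 and 1.02 ± 0.52 for H2-D1 (SE, n = 3 each).

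B2m, the light chain to which class I heavy chains are bound, showed the same arrangement of samples. It had 1728, 1703 and 1621 CPM in the anti-Stat3 samples, against 1481, 449.6 and 459.5 CPM in the control samples. The anti-Stat3 samples agreed to within a coefficient of variation of 3.32%, against 74.4% among the controls. Control sample 1 had 3.26 times the mean of control samples 2 and 3, and that ratio was 3.02 for H2-K1 and 3.36 for H2-D1. For these 3 genes the pairs differed more in the control level than in the level with anti-Stat3 siRNA: the mean of anti-Stat3 samples 2 and 3 was 1.17 times control sample 1 for H2-K1, 0.967 times for H2-D1 and 1.12 times for B2m.

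Nlrc5, the transactivator of class I genes, had the largest change of the 8. It had 23.3, 66.0 and 58.9 CPM in the anti-Stat3 samples, against 11.7, 4.34 and 3.18 CPM in the control samples. The groups did not overlap. Like the classical chains Nlrc5 was highest in sample 1 among the controls, but unlike them it was lowest in sample 1 among the anti-Stat3 samples. The difference was 1.98-fold in pair 1, 14.8-fold in pair 2 and 17.9-fold in pair 3, and the log2 change was 2.95 ± 0.63 (SE, n = 3 each). Anti-Stat3 samples 2 and 3 averaged 5.34 times the level of control sample 1.

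Of the non-classical chains, H2-Q4 had 108, 133 and 185 CPM in the anti-Stat3 samples, against 87.1, 22.4 and 22.1 CPM in the control samples. The groups did not overlap, and the pair changes were 1.24-fold, 5.89-fold and 8.36-fold, the largest of the heavy chains in pairs 2 and 3. H2-T23 encodes Qa-1, which presents leader peptides of other class I chains to the CD94/NKG2 receptors of natural killer cells. It had 50.0, 108 and 159 CPM in the anti-Stat3 samples, against 40.4, 34.0 and 35.2 CPM in the control samples. Its controls were nearly level, with a coefficient of variation of 9.26%, and the pairs differed instead in the anti-Stat3 samples, where sample 1 was 0.375 times the mean of samples 2 and 3. Among the 8 genes the control coefficient of variation was otherwise 20.4% for H2-M3 and 69.9% to 85.4% for the other 6.

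H2-M3, a chain that presents N-formylated peptides of bacteria and mitochondria, had the smallest mean change. It had 17.8, 17.9 and 24.9 CPM in the anti-Stat3 samples, against 16.1, 11.4 and 11.6 CPM in the control samples. The groups did not overlap, though anti-Stat3 samples 1 and 2 were close to control sample 1, and the pair changes were 1.10-fold, 1.56-fold and 2.14-fold. H2-T22, a ligand of some gamma-delta T cells, had the fewest counts of the 8, with 54 to 91 counts in the anti-Stat3 and 31 to 83 counts in the control samples. It had 5.70, 3.64 and 5.91 CPM in the anti-Stat3 samples, against 5.61, 1.64 and 1.86 CPM in the control samples. The groups overlapped, and in pair 1 the levels were nearly the same, with a ratio of 1.02.

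**Figure D2:**
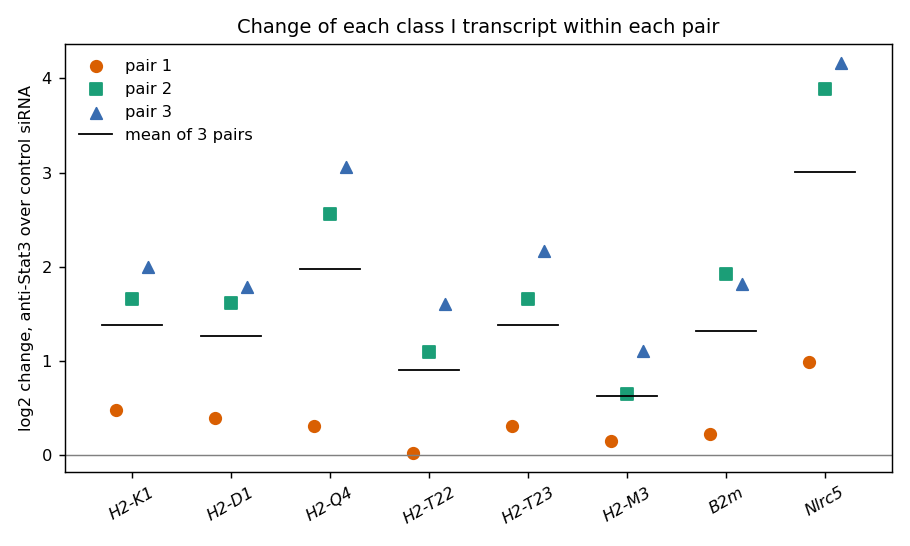
Log2 change of each class I transcript, anti-Stat3 over control siRNA, within pair 1 (circle), pair 2 (square) and pair 3 (triangle), with a bar at the mean of the 3 pairs. Every point is at or above 0, pair 1 is the lowest point for each gene, and Nlrc5 has the largest changes (0.98, 3.89 and 4.16).

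In all 8 genes the changes in pairs 2 and 3 were both larger than in pair 1, where this held for 32.9% of all genes tested. In 7 of the 8, all but H2-M3, both were at least 2-fold, against 1.68% of all genes tested. Control sample 1 was the highest control for all 8 genes, as it was for 36.7% of all genes tested. The pairs with the larger changes were those with many macrophage transcripts, and they also had the higher fibroblast marker sums. In pairs 2 and 3 the macrophage marker sums were 1732 and 2863 CPM with anti-Stat3 and 1801 and 2483 CPM with control siRNA. The part of macrophages, or of any other difference between the pairs, in the size of the change was not tested. Ifnb1, a type I interferon gene chosen after its values were seen, was detected in pair 1 with 1.76 CPM in the anti-Stat3 and 1.96 CPM in the control sample and had 0 counts in the other 4 samples, where 3 counts would be 0.159 to 0.230 CPM.

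The number of class I genes past an adjusted p of 0.05 over all genes depended on the fit and on pair 1. With the group alone, edgeR's quasi-likelihood test called 0 of the 8 and 0% of all genes tested, and 5 of the 8 had an unadjusted p under 0.05, as did 1.77% of all genes. That fit did not call Stat3, the silenced gene, either, though its log2 change was -2.33 (adjusted p of 0.9998). With the pair as a block, edgeR and DESeq2 both called Stat3 as lower, with an adjusted p of 0.0027 and 1.2e-48. DESeq2 with the group alone called Nlrc5, where it called 0.128% of all genes, 0.12% as higher. With the pair as a block, edgeR and limma-voom each called 0 of the 8 and 0.0602% of all genes, 0.0226% as higher, and all 8 had an unadjusted p under 0.05, as did 10.8% and 11.2% of all genes in either direction. DESeq2 with the block called Nlrc5 and 1.66% of all genes, 0.873% as higher, and the Nlrc5 call was lost without pair 2 or without pair 3, where 0.015% and 0.0516% of all genes tested were called as higher. Without control sample 1, which breaks a pair, edgeR called H2-K1 and B2m and 0.294% of all genes tested as higher. When pair 1 was left out, blocked edgeR called all 8 genes and 3.02% of all genes tested as higher, and blocked DESeq2 called 6, all but H2-T22 and H2-M3, and 2.03% of all genes tested. No member was lower in any of these fits.

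Among the 6 heavy chains the makeup of the counts differed between pairs and, for some chains, between the siRNAs. These shares do not depend on the scaling of libraries, but they do depend on transcript length and on how reads of similar genes were assigned. H2-Q4 took 13.2%, 17.4% and 21.1% of the heavy chain counts in anti-Stat3 samples 1 to 3, against 14.0%, 9.72% and 10.7% in control samples 1 to 3. Its share was thus higher with anti-Stat3 siRNA in pairs 2 and 3, where the exact 95% binomial intervals did not overlap (in pair 2, 16.7% to 18.1% with anti-Stat3 and 8.86% to 10.6% with control siRNA), and slightly lower in pair 1. H2-T23 took 6.11%, 14.1% and 18.1% in the anti-Stat3 samples, against 6.49%, 14.7% and 17.1% in the control samples, so its share followed the pair and hardly the siRNA. H2-M3 took 2.18%, 2.35% and 2.84% in the anti-Stat3 samples, against 2.59%, 4.95% and 5.63% in the control samples. This share was lower in each pair, with intervals that overlapped in pair 1 (1.93% to 2.44% with anti-Stat3 and 2.27% to 2.93% with control siRNA) and did not in pairs 2 and 3. The intervals cover counting error only. Heavy chain counts per 100 counts of B2m were 47.4, 44.9 and 54.2 in the anti-Stat3 samples, against 42.0, 51.3 and 44.8 in the control samples, with no common direction over the pairs, and lay between 42.0 and 54.2 in all 6 samples.

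**Figure D3:**
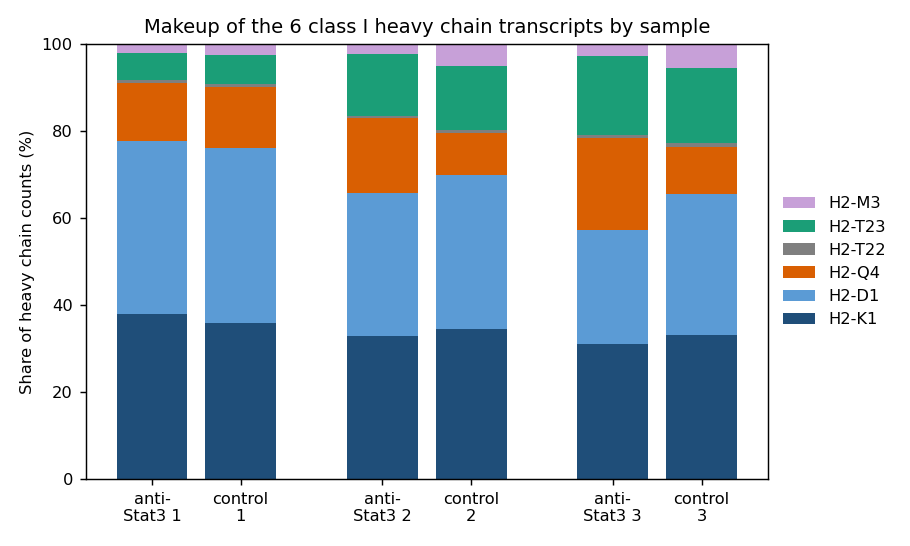
Share of each of the 6 class I heavy chains in their summed counts, in percent, in each sample, with the anti-Stat3 sample left of the control sample of the same pair. The H2-T23 segment is narrow in both samples of pair 1 and wide in pairs 2 and 3, and the H2-Q4 segment is wider with anti-Stat3 siRNA in pairs 2 and 3.

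Per kilobase of exon, B2m was by far the most abundant, with a mean of 1958 CPM per kilobase in the anti-Stat3 and 927 in the control samples. H2-K1 averaged 168 CPM per kilobase in the anti-Stat3 and 74.7 in the control samples, H2-D1 followed with 128 in the anti-Stat3 and 63.1 in the control samples, and their ranges over samples overlapped within each group. H2-Q4 averaged 79.2 and H2-T23 71.7 CPM per kilobase in the anti-Stat3 samples, against 24.5 and 24.8 in the control samples, again with overlapping ranges. H2-M3 had 14.1 CPM per kilobase in the anti-Stat3 and 9.06 in the control samples. The order of the lowest levels differed between the groups, with 6.08 for Nlrc5 and 2.82 for H2-T22 in the anti-Stat3 samples, and 0.789 for Nlrc5 and 1.68 for H2-T22 in the control samples. Levels of single chains are uncertain where chains share sequence. In the reference transcripts 43.9% of the 50-base windows of H2-T22 also occur in transcripts of other genes, chiefly H2-T10, and 39.2% of those of H2-Q4, 29.8% of H2-T23, 13.9% of H2-D1 and 6.87% of H2-K1. The share was 0.576% for H2-M3 and 0 for B2m and Nlrc5.

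Class I promoters can carry boxes for NF-kB, for IRFs and for the complex through which NLRC5 acts, and matches to such boxes are shown as a description. RefSeq promoter sequences (build GRCm38.p6) were matched for 7 of the 8 genes, and the 200 bases before the annotated start of 6 of them are printed, with capitals at matches to the motifs named below.
H2-K1 (chr17:34000348-34000547, minus strand): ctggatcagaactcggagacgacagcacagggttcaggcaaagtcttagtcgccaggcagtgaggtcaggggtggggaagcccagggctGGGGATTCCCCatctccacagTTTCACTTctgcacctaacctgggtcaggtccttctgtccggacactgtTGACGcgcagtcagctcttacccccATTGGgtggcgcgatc
H2-D1 (chr17:35262894-35263093, plus strand): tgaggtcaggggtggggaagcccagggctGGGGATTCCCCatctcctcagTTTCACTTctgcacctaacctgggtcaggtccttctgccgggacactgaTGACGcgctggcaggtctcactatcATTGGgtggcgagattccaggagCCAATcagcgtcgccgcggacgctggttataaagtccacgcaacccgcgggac
H2-Q4 (chr17:35379417-35379616, plus strand): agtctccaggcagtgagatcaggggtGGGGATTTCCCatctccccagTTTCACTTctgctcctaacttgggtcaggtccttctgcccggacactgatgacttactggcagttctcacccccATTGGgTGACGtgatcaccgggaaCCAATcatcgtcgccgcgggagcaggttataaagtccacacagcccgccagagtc
H2-T23 (chr17:36032702-36032901, minus strand): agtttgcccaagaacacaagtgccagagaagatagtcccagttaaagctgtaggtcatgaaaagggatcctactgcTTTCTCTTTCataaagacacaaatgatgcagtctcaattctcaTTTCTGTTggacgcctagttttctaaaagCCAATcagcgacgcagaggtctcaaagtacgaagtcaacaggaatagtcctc
H2-M3 (chr17:37270034-37270233, plus strand): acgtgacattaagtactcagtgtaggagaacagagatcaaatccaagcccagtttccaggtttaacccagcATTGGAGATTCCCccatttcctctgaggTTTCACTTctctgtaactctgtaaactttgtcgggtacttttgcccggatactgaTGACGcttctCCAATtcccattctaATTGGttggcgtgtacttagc
B2m (chr2:122147487-122147686, plus strand): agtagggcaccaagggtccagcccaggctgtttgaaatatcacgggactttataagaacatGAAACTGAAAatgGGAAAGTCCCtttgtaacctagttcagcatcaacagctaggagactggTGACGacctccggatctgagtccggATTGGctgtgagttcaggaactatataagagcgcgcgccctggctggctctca

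In the 300-base window from 250 bases before to 50 after the start, searched on both strands, the CCAAT box (CCAAT, the Y box bound by NF-Y) was found in 7 of 7 promoters and in 37.4% of all 32851 promoters of that length. The letters of the X2 box core (TGACG, bound by CREB and ATF factors) were found in 6 of 7, all but H2-T23, and in 20.8% of all promoters. In H2-Q4 the stretch that resembles the one around the H2-D1 match lacks TGACG, and the match lies elsewhere, at -73 to -69. The H2-T22 match, at -22 to -18, lies nearer to the start than its CCAAT matches. Whether each match is the X2 box of class I promoters was not tested. The IRF core (AANNGAAA) was found in 7 of 7 and in 23.9%, and the NF-kB consensus in 6 of 7, again all but H2-T23, and in 4.51%. The IRF and NF-kB motifs were added after these promoters were seen, so nothing is read from their counts. The longer interferon-stimulated response element (GAAA, any 2 bases, then GAAA), which contains the IRF core, was found in B2m, H2-T22 and H2-T23 and in 3.44% of all promoters. The motif of STAT dimers (TTCNNNGAA) was found in H2-M3 alone and in 8.30% of all promoters. In H2-K1, H2-D1 and H2-Q4 the NF-kB and IRF matches lay in the same order with 10 bases between them. Matches describe these letters only, and the heavy chain promoters are related sequences, so they are not independent of each other.

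**Figure D4:**
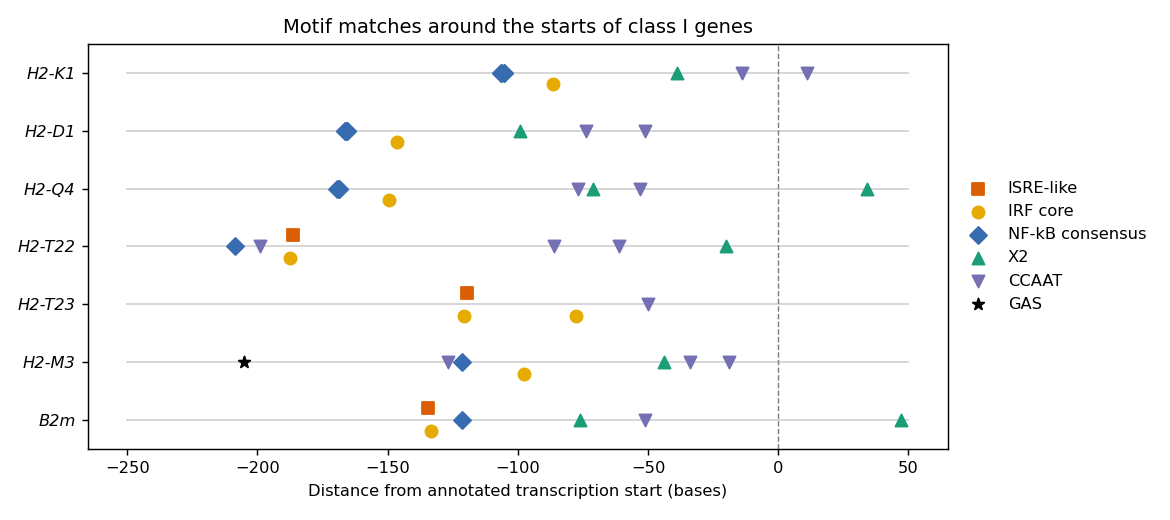
Positions of motif matches in 7 class I promoters, by distance in bases from the annotated transcription start (dashed line), with 1 marker shape per motif. H2-K1, H2-D1 and H2-Q4 share an NF-kB match followed by an IRF core match, with X2 and CCAAT matches nearer to the start. The X2 match of H2-Q4 lies in another stretch of the sequence than those of H2-K1 and H2-D1. H2-T23 has IRF-type and CCAAT matches only.

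Genes that supply and load class I peptides were mostly higher in the same samples. This list and the pathway lists below were chosen with earlier results of these data known. Their counts are a description, and nothing is read from them beside the shares over all genes. Of 13 listed genes, all tested, 10 were higher in all 3 pairs and 0 were lower in all. The same 10 had groups that did not overlap. Among all genes tested, 17.3% were higher and 16.4% lower in all 3 pairs, and 2.45% had anti-Stat3 samples all above the controls. The median log2 change was 1.30, against -0.0028 over all genes tested. In edgeR with the group alone 0 passed and 10 had an unadjusted p under 0.05, as did 1.77% of all genes tested. Blocked edgeR and limma-voom called 0. DESeq2 with the group alone called Psmb9, Psmb10 and Tap1 as higher, and 0.12% of all genes tested. In blocked DESeq2, which called 0.873% of all genes tested as higher, 5 rose and 0 fell. These were the immunoproteasome subunits Psmb9 and Psmb10, the proteasome activator subunits Psme1 and Psme2 and the peptide editor Tapbpl. Psmb9 had 13.9, 38.7 and 82.7 CPM in the anti-Stat3 samples, against 5.21, 2.86 and 2.76 CPM in the control samples, and Psmb10 had 54.2, 58.5 and 142.0 CPM in the anti-Stat3 samples, against 26.3, 8.26 and 16.3 CPM in the control samples. Tap1 and Tap2, the subunits of the peptide transporter, had log2 changes of 2.30 ± 0.54 and 1.51 ± 0.37 (SE) and did not pass in blocked DESeq2. For Tap1 the levels were 105.2, 184.7 and 294.1 CPM in the anti-Stat3 samples, against 67.3, 23.9 and 27.7 CPM in the control samples. The general endoplasmic reticulum chaperones Calr, Canx and Pdia3 had log2 changes of -0.05, 0.07 and 0.09.

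Of 27 other class I and class I-like genes, 13 passed the filter on low counts. In blocked DESeq2 H2-Q2, H2-K2, H2-L and H2-T10 rose and 0 fell, where 0.873% of all genes tested were called as higher. H2-T10 is the gene that chiefly shares windows with H2-T22. How far reads of similar class I genes enter the levels of these genes was not tested. The edgeR fits and limma-voom called 0. In edgeR with the group alone 3 had an unadjusted p under 0.05, as did 1.77% of all genes tested. DESeq2 with the group alone called 0. H2-Q2 had 20.6, 21.9 and 31.8 CPM in the anti-Stat3 samples, against 16.2, 5.87 and 7.61 CPM in the control samples. H2-T24 had 19.996, 21.7 and 21.02 CPM in the anti-Stat3 samples, against 14.4, 3.39 and 4.44 CPM in the control samples, the arrangement seen for H2-K1 and B2m. H2-K2 had a log2 change of 1.34 and H2-Q1 of 0.84. The class I-like genes Mr1, Hfe and Fcgrt, named after their values were seen, had log2 changes of -0.06, -0.11 and 0.08.

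Of 14 factors that act on class I promoters, 3 were higher in all 3 pairs and 3 lower in all. These counts are near the shares over all genes tested, 17.3% higher and 16.4% lower in all 3 pairs. Irf1, an IRF induced by interferon gamma, had 60.9, 180.8 and 226.8 CPM in the anti-Stat3 samples, against 45.2, 28.3 and 30.04 CPM in the control samples. Irf1 was higher in every anti-Stat3 sample than in any control sample. Of the 14 factors 0 passed in edgeR with the group alone, with 2 at an unadjusted p under 0.05, as were 1.77% of all genes tested. In the 3 blocked fits 0 passed. DESeq2 with the group alone called Irf1 as higher, and 0.12% of all genes tested. Rfx5, a subunit of the RFX complex on the X box, had a log2 change of 0.29 and Irf2 of 0.34. The other RFX subunits and the NF-Y subunits had log2 changes from -0.15 (Nfyc) to 0.0049 (Rfxap), and the median of the list was 0.0088.

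Of the 14 tested genes of interferon signalling out of 16 listed, 8 were higher in all 3 pairs and 2 lower in all. Among all genes tested these shares were 17.3% and 16.4%, and nothing is read from them, since this list too was chosen with earlier results known. Blocked DESeq2 called 1, Socs1, a feedback inhibitor of JAK kinases, as higher, and 0.873% of all genes tested. EdgeR with or without the block, limma-voom and DESeq2 with the group alone called 0. In edgeR with the group alone 2 had an unadjusted p under 0.05, as did 1.77% of all genes tested. Stat2 had 249.98, 380.1 and 453 CPM in the anti-Stat3 samples, against 200.8, 94.2 and 111.7 CPM in the control samples. Irf9, a DNA-binding subunit of the type I interferon response complex, had 92.7, 87.8 and 104.5 CPM in the anti-Stat3 samples, against 87.9, 44.5 and 51.5 CPM in the control samples. The receptor chains Ifngr1, Ifngr2, Ifnar1 and Ifnar2 had log2 changes of 0.22, 0.13, -0.10 and -0.12. Ifng, the interferon gamma gene, had at most 1 count in any sample.

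**Figure D5:**
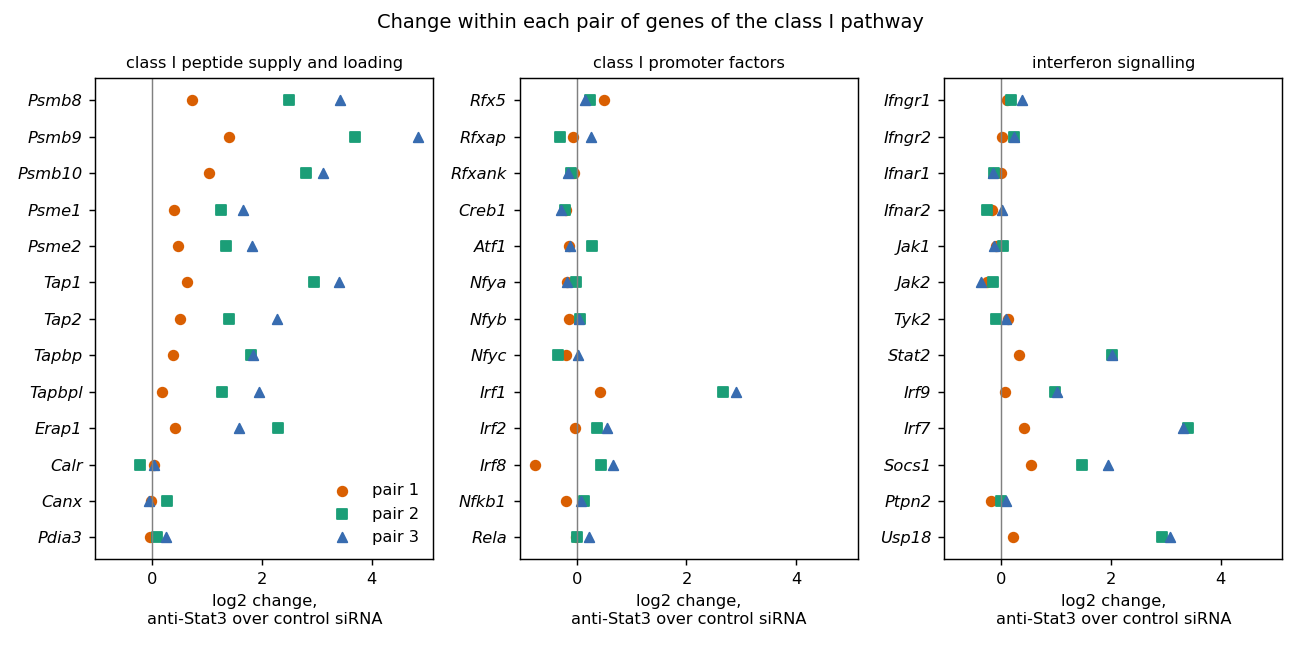
Log2 change, anti-Stat3 over control siRNA, of the tested genes reported here for peptide supply and loading, of class I promoter factors and of interferon signalling genes, within pair 1 (circle), pair 2 (square) and pair 3 (triangle). Immunoproteasome, TAP, Irf1, Stat2, Irf7 and Usp18 points lie to the right in pairs 2 and 3 and nearer to 0 in pair 1, while chaperones, RFX, NF-Y subunits and interferon receptors lie around 0 in all pairs.

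MHC class II genes, which present antigen to CD4 T cells and are normally restricted to professional antigen-presenting cells, mostly had too few counts to be tested. Of 11 listed genes, 4 passed the filter on low counts. Cd74, the invariant chain, rose in blocked DESeq2, which called 0.873% of all genes tested as higher. It had 0.878, 7.48 and 19.9 CPM in the anti-Stat3 samples against 0.812, 2.80 and 4.14 CPM in the control samples. The edgeR fits, limma-voom and DESeq2 with the group alone called 0 of the 4. No class II gene had an unadjusted p under 0.05 in edgeR with the group alone, where 1.77% of all genes tested did. Ciita, the class II counterpart of Nlrc5, had 0.125, 1.41 and 6.14 CPM in the anti-Stat3 samples, against 0, 0.741 and 0.420 CPM in the control samples. H2-Ab1 and H2-DMa had log2 changes of 0.04 and 0.06.

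Calls in these lists also rested on the second and the third pair. When pair 1 was left out, edgeR and DESeq2 with the block each called 10 of the peptide supply and loading genes as higher, 2 promoter factors with Irf1 among them, and 6 interferon signalling genes, and of the other class I genes they called 7 and 4. These fits called 3.02% and 2.03% of all genes tested as higher. Of the class II genes they called Cd74 each, and blocked edgeR also called Ciita. Without pair 2 or without pair 3 they called 0 genes of any list.

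The genes with the pattern over the 6 samples most like the median of the 8 were Parp9, Slfn8, C2, Mitd1, Ly6e, Trim34b, Uba7, Parp12, Parp10 and Psme2. Likeness was the root mean square distance between log2 levels centred on each gene's own mean, which was 0.107 to 0.174 for these 10 genes and had a median of 0.881 over the 11905 genes compared. Among the 8 class I genes themselves it was smallest for H2-K1 (0.0958) and B2m (0.0968) and largest for H2-T23 (0.653) and Nlrc5 (0.974). Parp9, the nearest gene, had 183.4, 206.4 and 211.2 CPM in the anti-Stat3 samples, against 159.0, 50.6 and 51.6 CPM in the control samples. With the 3 pair changes in place of the 6 levels, 3 of these 10 genes stayed among the nearest 10, namely Parp10, Slfn8 and Trim34b.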

How the data were processed

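Poly(A) RNA of 6 samples was sequenced from TruSeq libraries, per the labels' protocols. The submitters' processing notes name TopHat2 2.0.10, HTSeq and the mouse build mm9. The authors deposited raw counts per gene symbol, not normalised. For strand and for reads shared by similar genes, the sources used here do not give the counting rule. The 6 columns were matched to samples by the group and number in their names, and 0 columns were left unused. The members and lists were chosen with earlier results of these data known.

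Counts were scaled with TMM, filtered with filterByExpr (minimum count 10, total 15, leaving 13284 genes) and tested in edgeR 4.0.16 (R 4.3.3) by its quasi-likelihood F test, with only the group in the model and Benjamini-Hochberg adjustment at 0.05. The SE of a log2 change was taken from its F statistic. Pair changes are differences of log2 CPM with a prior count of 2. The other tools were DESeq2 1.42.0 and, for limma-voom, limma 3.58.1. With 3 samples per group an exact two-sided permutation p cannot be under 0.1, so none was used. The fits were also run on simulated data, the outcome of which is not reported here and is not used as support for any fit.

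Replicate numbers in the titles were taken to pair the samples, because the deviations from the group means of same-numbered samples correlated at 0.83, 0.82 and 0.83 across genes. The labels name neither what a number shares nor separate cultures or animals. The p-values therefore reflect the spread among these 6 samples alone, and that spread may be technical.

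The text names Stat3, the 8 class I genes, up to 4 genes with the smallest edgeR p in each list, and the 10 genes nearest in pattern whose mean log2 CPM reached 1. Genes named only as called, by a shared role or as markers were chosen after their values were seen. Exon lengths and shared 50-base windows came from GENCODE M21 (GRCm38), a later build than the counts, and promoters from RefSeq. A gene of 2 lists is counted in them but not reported here by name or value. The IRF and NF-kB motifs were added after the promoters were seen.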

Additional observations from a re-analysis of the deposited data

How the results depend on the processing

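All 8 class I genes kept a higher level with anti-Stat3 siRNA under each of the 20 alternatives tried. The count of genes higher in all pairs stayed at 8 under other scalings and without the filter. Leaving out a sample only drops its pair, so this count could not fall and nothing is read from it. The median log2 change of the 8 genes, 1.12 in edgeR with the group alone, stayed within the spread between pairs. It was 1.36 with the replicate block in edgeR. Leaving out 1 sample gave 0.84 (without control sample 3) to 1.87 (without control sample 1). Other scalings shifted the median over all genes by 0.0013 and -0.0058.

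The counts of calls did depend on the fit. Over all genes, edgeR with the group alone called 0, DESeq2 with the group alone 17, and, with the replicate block, edgeR 8, DESeq2 220 and limma-voom 8. Leaving out 1 sample from the unblocked fit gave 0 to 40. With the replicate block, leaving out pair 1, 2 or 3 gave 703, 3 and 0 calls in edgeR and 432, 14 and 20 in DESeq2. Of the class I genes, edgeR with the group alone called 0, DESeq2 called 1 with the group alone and 1 with the replicate block, and leaving out 1 sample gave 0 to 2. Without pair 1 the replicate block gave 8 in edgeR and 6 in DESeq2. Of the genes in the 5 pathway lists, DESeq2 called 4 with the group alone and 11 with the replicate block, leaving out 1 sample gave 0 to 2, and without pair 1 the replicate block gave 26 in edgeR and 22 in DESeq2, against 0 in edgeR with the group alone. The replicate block in edgeR and limma-voom changed no call among the class I genes or these lists. The cause was not tested. Depth limits H2-T22 most, with 31 counts in its lowest samples.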
